A study of Mus musculus with 6 samples.

Results

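The genes described here encode the SR proteins, the hnRNPs and their closest partners, the proteins that steer the choice of splice sites. They were taken by a rule on symbols among the protein-coding genes of the GENCODE M21 annotation. The rule uses no values, but it was set with earlier results of these data known. They make up 43 of the 18951 genes in the count table. They comprise 11 SR proteins (Srsf genes), 2 Tra2 proteins, 20 hnRNPs (Hnrnp genes), 3 PTB proteins, 4 Clk kinases and 3 Srpk kinases. All 43 had a row in the table and all 43 passed the filter on low counts. The data are RNA sequencing read counts for 6 primary cultures labelled as heart muscle cells of C57BL/6 mice at postnatal day 1. Of these, 3 (si-Rbm22) received an siRNA against Rbm22, which encodes an RNA-binding protein at the catalytic centre of the spliceosome, and 3 (si-Control) received a scrambled siRNA. Both groups were thus transfected, no untransfected culture was used here, and RNA was taken after 48 h. The protocols state a purity above 97.5% by cardiac troponin T staining and call the 3 cultures of a group biological replicates, but not whether each came from a separate isolation of cells, and the p-values cover no more than the variation seen among these cultures.

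SR proteins bind exonic sequences through RNA recognition motifs and recruit the splicing machinery with a tail rich in arginine-serine dipeptides. Srpk kinases phosphorylate that tail in the cytoplasm, which allows import into the nucleus, and Clk kinases phosphorylate it further in the nucleus. The hnRNPs coat nascent transcripts and often repress nearby splice sites, and the PTB proteins do so by binding pyrimidine-rich stretches. Deletion of Srsf1, Srsf2 or Hnrnpu in the mouse heart is known to disturb cardiac splicing and function.

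The depth was similar in the 2 groups, with totals of 36860678 to 37344860 reads in si-Rbm22 libraries and 34269042 to 35955301 in si-Control libraries. Rbm22 (ENSMUSG00000024604, GRCm38 chromosome 18) had 533, 466 and 491 reads in si-Rbm22 libraries and 798, 916 and 774 in si-Control libraries, a log2 fold change of -0.78 (SE 0.097, with an adjusted p of 4.22e-06 in edgeR). The direction is that of the labels, but the size is below the median absolute log2 fold change of all genes tested (0.82), of which 38.9% were called lower, and the cell content described next differed between the groups here too. Among replicates, si-Rbm22 replicate 3 stood farthest, with a chi-square per degree of freedom of 31.6 and 32.5 to the other si-Rbm22 libraries, which were at 10.9 from each other. The cell type label did not hold for the si-Control libraries. The 10 cardiomyocyte markers summed to between 23260 and 36750 CPM (reads per 1e+06 after TMM scaling) in si-Rbm22 libraries and between 40.4 and 46.3 CPM in si-Control libraries, where Mybpc3, Myl2, Myl7, Nppa and Pln had no read. All 10 were called higher. The 7 markers of skeletal muscle precursors summed to at most 0.472 CPM in si-Rbm22 libraries, where Cacng1, Cdh15, Myf5 and Myod1 had no read, and to between 588.8 and 601.4 CPM in si-Control libraries, and all 6 tested were called lower. Markers of dividing cells summed to between 509.7 and 602.2 CPM in si-Rbm22 libraries and between 1523 and 1558 CPM in si-Control libraries, and all 7 were called lower. Endothelial (7 of 7 higher), epicardial (6 of 6 higher) and macrophage (6 of 6 higher) markers summed to at least 360.0, 1921 and 70.2 CPM in si-Rbm22 libraries and to at most 9.24, 53.6 and 3.11 CPM in si-Control libraries, where Tie1, Upk1b, Upk3b and Adgre1 had no read. The 7 fibroblast markers (2 higher, 4 lower) summed to 5530 to 5660 CPM in si-Rbm22 libraries and 20650 to 22530 CPM in si-Control libraries. Every comparison below is therefore between si-Rbm22 libraries and si-Control libraries of different cell content, the part of that content in the results was not tested, and no si-Control library without this difference was there to repeat them on.

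The SR protein and hnRNP genes differed little in amount between these libraries. Of the 43, 15 were higher in si-Rbm22 (Benjamini-Hochberg adjusted p under 0.05 in edgeR's quasi-likelihood test), 14 were lower and 14 did not pass. This is 29 of 43, or 67.4%, where 82% of all 14621 genes tested were called, 43.1% higher and 38.9% lower. The median absolute log2 fold change was 0.18 for the 43 genes, 0.62 for genes with at least 10 CPM in 3 libraries and 0.82 for all genes tested. Srsf12 and Srpk3, both higher, alone changed at least 2-fold past the test, whereas 43.1% of all genes tested did so (24.4% higher, 18.7% lower; 32.6% where genes under 10 CPM are dropped). At least 1.5-fold, 8 of the 43 were called, against 58.8% of all genes tested. Without regard to the test, the si-Rbm22 and si-Control libraries did not overlap for 31 of the 43, against 84.2% of all genes tested. Of the 31, 16 were higher and 15 lower in si-Rbm22, where 44% and 40.2% of all genes tested were. The summed level of the 43 was 7565 ± 224 CPM in si-Rbm22 and 7656 ± 92.3 CPM in si-Control (SD, n = 3 each). They took 0.749% ± 0.0414 of reads in si-Rbm22 and 0.773% ± 0.0109 in si-Control.

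**Figure D1:**
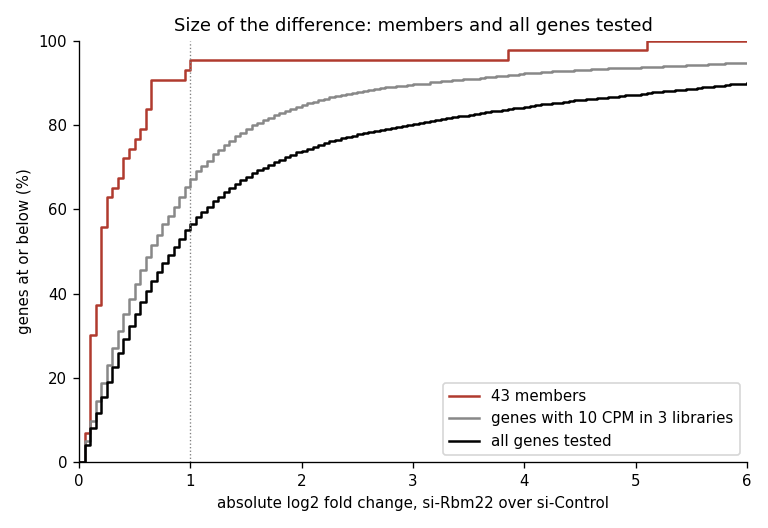
Cumulative share of genes (vertical axis, %) at or below each absolute log2 fold change, si-Rbm22 over si-Control (horizontal axis, shown to 6), for the 43 SR protein, hnRNP, PTB and kinase genes, for genes with at least 10 CPM in 3 libraries and for all genes tested. At the dotted line, a 2-fold difference, the curves stand at 95.3%, 67.1% and 56.6%.

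Across roles, the calls split in direction among SR proteins (4 higher, 5 lower of 11) and hnRNPs (5 higher, 6 lower of 20). All 3 PTB genes were higher, and 3 of 4 Clk genes were lower. Of all genes tested, 43.1% were called higher and 38.9% lower. Replicates were tight. Apart from Srsf12 and Srpk3, the largest SD was 11.5% of the mean in si-Rbm22 and 7.76% in si-Control, and the lowest mean was 35.2 CPM in si-Rbm22 and 39.0 CPM in si-Control. Of the 29 calls, 23 (10 higher, 13 lower) stayed past the test with the same direction in every alternative fit that tested them, while a 10 CPM filter left Srsf12 and Srpk3 untested. The other 6 were Srsf3, Srsf11, Tra2a, Hnrnpa3, Ptbp2 and Clk4. Their log2 fold changes lay between -0.18 and 0.19.

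**Figure D2:**
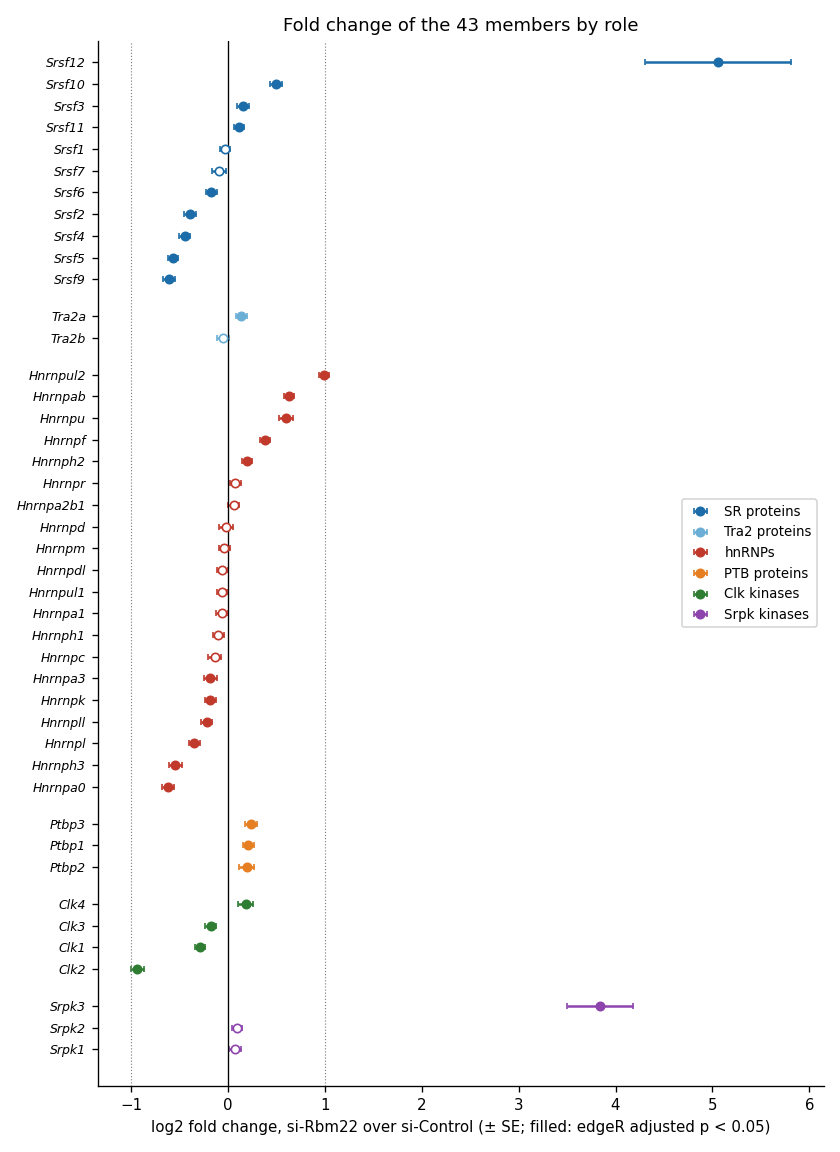
Log2 fold change, si-Rbm22 over si-Control (horizontal axis), with SE, for each of the 43 genes (vertical axis) grouped and coloured by role; filled points passed at an edgeR adjusted p under 0.05, and dotted lines mark 2-fold. Srsf12 and Srpk3 lie beyond the lines, Hnrnpul2 (0.99) and Clk2 (-0.94) just inside them, and the other genes between -0.62 and 0.63.

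Among the SR proteins, Srsf5, the gene with most reads, and Srsf9 were lower in si-Rbm22 libraries, and Srsf10 was higher. Srsf5 (ENSMUSG00000021134, GRCm38 chr12:80945504-80950507), an activator of exon inclusion, had 296, 307 and 292 CPM in si-Rbm22 libraries and 436, 440.1 and 451 CPM in si-Control libraries. No si-Rbm22 value came near the si-Control values, and the log2 fold change was -0.57 (SE 0.053, with an adjusted p of 1.99e-07 in edgeR; the SE is the size of the log2 fold change over the square root of the test's F). Its share of the summed Srsf level was 19.5% ± 1.04 in si-Rbm22 and 25.5% ± 0.217 in si-Control (SD, n = 3 each).

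Srsf9 (chr5:115327177-115333080), a close relative of Srsf1, had 40.0, 38.5 and 42.1 CPM in si-Rbm22 libraries and 62.9, 61.3 and 59.8 CPM in si-Control libraries. The groups stood apart, with a log2 fold change of -0.61 (SE 0.064, adjusted p = 6.48e-07). Srsf4 (chr4:131873617-131901706), which has the longest arginine-serine tail of the group formed with Srsf5 and Srsf6, had 58.7, 61.8 and 57.7 CPM in si-Rbm22 libraries and 83.3, 81.3 and 78.5 CPM in si-Control libraries. It fell by 0.45 on the log2 scale (SE 0.058, adjusted p = 6.48e-06). Srsf2, which marks nuclear speckles, fell by 0.40 (SE 0.060), and Srsf6 by 0.17 (SE 0.056). The reads of Srsf2 are less certain, because its exons overlap those of Mettl23 and Mfsd11 on the other strand and the strand setting of the counting is not given.

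Srsf10 (chr4:135855747-135869908), which turns into a general splicing repressor when it loses its phosphates, had 123, 116 and 127 CPM in si-Rbm22 libraries and 82.3, 83.5 and 94.5 CPM in si-Control libraries. The lowest si-Rbm22 library was above the highest si-Control library, with a log2 fold change of 0.50 (SE 0.066, with an adjusted p of 7.88e-06 in edgeR). Srsf3, an adaptor for mRNA export, was higher by 0.16 (SE 0.061, adjusted p = 0.0284) and Srsf11 by 0.12, with an adjusted p of 0.04996 that no fit without a library kept under 0.05. Srsf3 lost its call without si-Rbm22 replicate 3 and without si-Control replicate 1 or 2 (adjusted p = 0.0676, 0.125 and 0.185). Srsf1, the founding SR protein, was at 211 ± 7.19 CPM in si-Rbm22 and 216 ± 3.79 CPM in si-Control (SD, n = 3 each; log2 fold change -0.03, SE 0.054). Srsf7, an export adaptor like Srsf3, had a log2 fold change of -0.09 (SE 0.071), and neither passed.

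Srsf12, the least abundant of the family and a relative of Srsf10, was detected mainly in si-Rbm22 libraries. It (chr4:33208991-33233340) had 46, 68 and 35 reads in si-Rbm22 libraries and 0, 0 and 4 reads in si-Control libraries, or 1.26, 1.89 and 0.932 CPM in si-Rbm22 and 0, 0 and 0.115 CPM in si-Control. The ratio of summed reads was 36.3, with a 95% exact interval of 13.9 to 135 for counting error alone, and the fitted log2 fold change was 5.06 (SE 0.751, with an adjusted p of 2.39e-05 in edgeR). All si-Control reads came from replicate 3, and without that library the fitted value was 8.63. The gene made up 0.0893% ± 0.0343 of the summed Srsf level in si-Rbm22 and 0.0022% ± 0.0038 in si-Control (SD, n = 3 each). In bulk libraries, a change in the number of cells that express such a gene cannot be told apart from a change in RNA per cell.

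The Tra2 proteins, SR-like activators that bind GAA-rich exons, were close to equal. Tra2a (chr6:49243924-49264033) had 97.1, 92.7 and 96.5 CPM in si-Rbm22 libraries and 84.2, 87.0 and 88.9 CPM in si-Control libraries. It was higher in every si-Rbm22 library, with a log2 fold change of 0.14 (SE 0.055, with an adjusted p of 0.0318 in edgeR), and lost its call in 5 of the 6 fits without a library. Tra2b (chr16:22244549-22266005) had 91.8, 93.6 and 99.1 CPM in si-Rbm22 libraries and 96.2, 93.3 and 105.5 CPM in si-Control libraries, which overlap (log2 fold change -0.05, SE 0.062, adjusted p = 0.45).

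Among the kinases of SR proteins, Clk2 was the member that fell furthest, and Srpk3 was far higher at low read counts. The start regions of Srpk3, Srsf12 and Clk2 are shown because these genes had the largest rises and the largest fall. The windows are RefSeq promoters of GRCm38.p6, 250 bases before to 50 after the start, on the strand of the gene (plus in each case). The Srsf12 gene starts earlier in GENCODE M21, at 33208991, so its whole window lies inside the gene of that annotation. Capitals mark 3 promoter motifs on either strand, namely the TATA box searched as TATAAA, the binding motif of the factor NF-Y searched as CCAAT, and the GC box searched as GGGCGG.
Srpk3, chrX:73774155-73774454: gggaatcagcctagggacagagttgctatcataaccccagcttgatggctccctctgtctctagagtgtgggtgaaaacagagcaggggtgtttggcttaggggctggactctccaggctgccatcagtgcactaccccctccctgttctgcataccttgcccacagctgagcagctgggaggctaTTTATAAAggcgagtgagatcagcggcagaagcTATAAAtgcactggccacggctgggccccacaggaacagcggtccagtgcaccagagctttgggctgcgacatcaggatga
Srsf12, chr4:33209022-33209321: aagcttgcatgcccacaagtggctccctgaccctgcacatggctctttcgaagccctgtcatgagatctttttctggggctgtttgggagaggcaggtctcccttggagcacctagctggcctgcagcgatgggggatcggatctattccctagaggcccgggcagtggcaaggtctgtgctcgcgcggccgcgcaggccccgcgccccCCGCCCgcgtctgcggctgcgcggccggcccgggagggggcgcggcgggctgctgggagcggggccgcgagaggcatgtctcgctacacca
Clk2, chr3:89164545-89164844: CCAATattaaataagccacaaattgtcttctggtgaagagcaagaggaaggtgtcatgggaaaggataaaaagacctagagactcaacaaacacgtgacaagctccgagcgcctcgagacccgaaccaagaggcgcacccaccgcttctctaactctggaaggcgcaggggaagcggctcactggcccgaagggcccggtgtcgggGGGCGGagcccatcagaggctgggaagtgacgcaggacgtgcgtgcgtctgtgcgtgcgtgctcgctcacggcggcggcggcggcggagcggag
A window was found for 39 of the 43 genes. The Srpk3 window holds 3 matches to TATAAA (2 of them overlapping, on opposite strands), no GGGCGG and 5 CpG dinucleotides, and the Srsf12 and Clk2 windows hold 26 and 27 CpG, no TATAAA and 1 GGGCGG each. TATAAA occurred in 13.6% of the 32851 windows of this length and GGGCGG in 35.7%, and the median number of CpG was 28 over the windows of these genes and 7 over all windows. Of these 39 genes, 33 (84.6%) had a window with GGGCGG, against 38.2% of all genes with a window. Neither this share nor the CpG median was computed for expressed genes alone, so neither contrast can be called particular to these genes. TATAAA was found for 6 of the 39 (15.4%), Srpk2 among them, against 15.7% of all genes with a window. CANNTG, the E-box bound by myogenic factors, had 2 matches in each of the Srpk3 and Srsf12 windows and 1 in that of Clk2, and it occurred in 72.3% of all windows. A MEF2-type pattern of 10 bases with a fixed final G had no match in the 3 windows and occurred in 3.69% of all. Forms with another last base were not searched, but the Srpk3 window holds such a form, CTATTTATAA, which overlaps a marked TATAAA. How often these forms occur in all windows was not counted. The other windows cannot be said to lack a MEF2-type site. CCAAT, matched once in the Clk2 window, occurred in 37.4%. The motifs were chosen after the values were seen, and a match is only a description.

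Clk2 (ENSMUSG00000068917, chr3:89164795-89176921), a nuclear kinase of SR proteins, had 35.8, 36.8 and 33.1 CPM in si-Rbm22 libraries and 70.6, 65.8 and 65.9 CPM in si-Control libraries. The values of the 2 groups lie far apart, at 52.2% of the si-Control level in si-Rbm22 (log2 fold change -0.94, SE 0.067, with an adjusted p of 1.07e-08 in edgeR). Clk1 (chr1:58410189-58424066), its best studied relative, had 108, 112 and 112.5 CPM in si-Rbm22 libraries and 130.0, 137 and 138 CPM in si-Control libraries. It fell by 0.29 (SE 0.055, adjusted p = 0.000216). Clk3 (chr9:57750624-57765860) had 69.1, 65.5 and 67.4 CPM in si-Rbm22 libraries and 78.6, 75.8 and 74.3 CPM in si-Control libraries, a fall of 0.18 (SE 0.057, adjusted p = 0.00992).

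Clk4 (chr11:51261730-51281766) went the other way, with 54.3, 54.8 and 66.2 CPM in si-Rbm22 libraries and 52.7, 51.2 and 50.5 CPM in si-Control libraries. The third si-Rbm22 library carried most of the difference. The log2 fold change of 0.18 (SE 0.078, with an adjusted p of 0.0424 in edgeR) was 0.07 without that library and did not pass there (adjusted p = 0.298), nor without si-Control replicate 1, 2 or 3 (0.0815, 0.131 and 0.159). Summed over the 4 genes, Clk transcripts were at 272 ± 6.61 CPM in si-Rbm22 and 330.3 ± 1.42 CPM in si-Control (SD, n = 3 each). Clk2 made up 13.0% ± 0.994 of this sum in si-Rbm22 and 20.4% ± 0.745 in si-Control, and Clk1 made up 40.7% ± 0.727 in si-Rbm22 and 40.9% ± 1.54 in si-Control. Part of an exon of Clk3 overlaps Edc3 on the other strand, which makes its count less certain.

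Srpk3 (ENSMUSG00000002007, chrX:73774405-73778925), the kinase of the family that is specific to heart and skeletal muscle, had 124, 158 and 134 reads in si-Rbm22 libraries and 8, 13 and 7 reads in si-Control libraries. This was 3.39, 4.39 and 3.57 CPM in si-Rbm22 and 0.221, 0.358 and 0.202 CPM in si-Control. The groups do not overlap, and the log2 fold change was 3.84 (SE 0.344, with an adjusted p of 1.23e-07 in edgeR; ratio of summed reads 14.5, 95% exact interval 9.86 to 22.0). It moved with the cardiomyocyte markers, which summed to at least 23260 CPM in si-Rbm22 and at most 46.3 CPM in si-Control, and against those of skeletal muscle precursors. Their part in the difference was not tested. Srpk1 (chr17:28587648-28622709), the ubiquitous kinase, had 74.7, 74.1 and 70.9 CPM in si-Rbm22 libraries and 74.3, 67.0 and 68.0 CPM in si-Control libraries. Srpk2 (chr5:23503264-23684617) had 95.8, 97.1 and 97.7 CPM in si-Rbm22 libraries and 88.5, 91.4 and 92.1 CPM in si-Control libraries. The Srpk1 values overlap, those of Srpk2 do not, and neither passed (log2 fold change 0.07, SE 0.061, adjusted p = 0.307, and 0.10, SE 0.053, adjusted p = 0.113). Srpk3 was 2.17% ± 0.290 of the summed Srpk level in si-Rbm22 and 0.162% ± 0.0551 in si-Control.

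**Figure D3:**
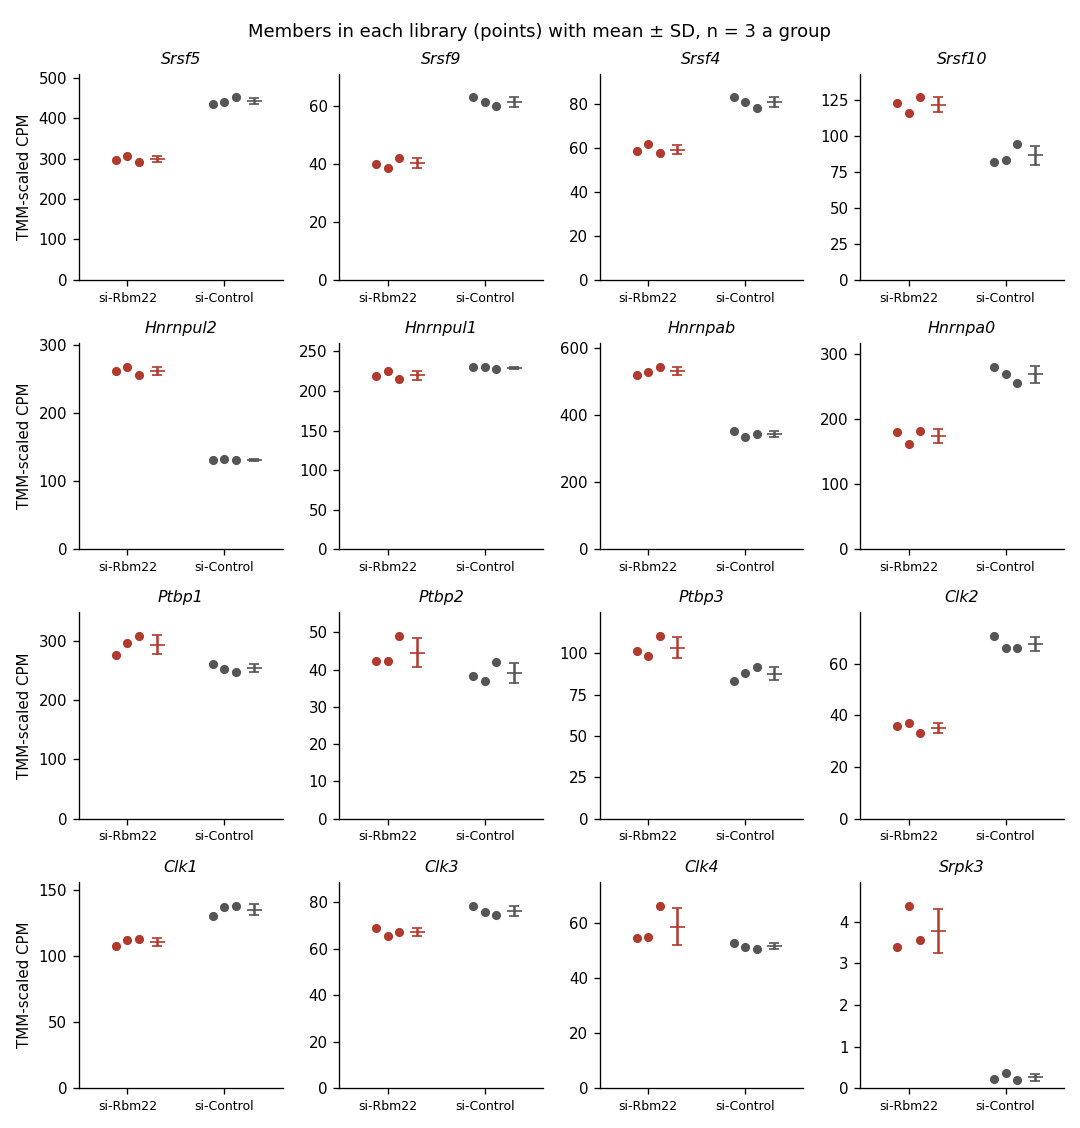
TMM-scaled CPM (vertical axes, from 0) of 16 genes in each si-Rbm22 and si-Control library (points), with mean and SD beside them (n = 3 each). Only Hnrnpul1 among those drawn did not pass the test; the Clk2 values lie at 33.1 to 36.8 CPM in si-Rbm22 and 65.8 to 70.6 CPM in si-Control.

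The hnRNP genes held the largest summed level. Of all genes tested, 82% were called, 43.1% at least 2-fold and 58.8% at least 1.5-fold. Of the 20 hnRNP genes, 11 were called, 5 higher and 6 lower, none of them at least 2-fold and 4 at least 1.5-fold. Hnrnpul2 had the largest change. This relative of the nuclear scaffold protein Hnrnpu (ENSMUSG00000071659, chr19:8820010-8834143) had 261, 268 and 255 CPM in si-Rbm22 libraries and 130.5, 133 and 131 CPM in si-Control libraries. Values within a group were nearly equal and the groups differed 1.99-fold (log2 fold change 0.99, SE 0.053, with an adjusted p of 4.19e-10 in edgeR). Hnrnpul1 (chr7:25721165-25754757), the other paralog, had 219, 225 and 214 CPM in si-Rbm22 libraries and 230.5, 229.6 and 228.0 CPM in si-Control libraries (log2 fold change -0.06, SE 0.052, adjusted p = 0.277). Hnrnpu itself, at 78.5 ± 7.52 CPM in si-Rbm22 and 51.8 ± 2.96 CPM in si-Control (SD, n = 3 each), rose by 0.60 (SE 0.075, adjusted p = 4.48e-06), although its exons overlap Cox20 on the other strand over 804 bases. In Hnrnpul2, 360 bases of exon are shared with another gene model of the same strand.

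Hnrnpab (chr11:51600100-51606847), a single-stranded nucleic acid binder also known for binding CArG boxes, had 519, 528 and 543 CPM in si-Rbm22 libraries and 353, 335.5 and 342 CPM in si-Control libraries. It rose by 0.63 (SE 0.053, with an adjusted p of 7.3e-08 in edgeR) and was 10.7% ± 0.103 of the summed hnRNP level in si-Rbm22 and 7.06% ± 0.194 in si-Control. Hnrnpf, which binds runs of G, rose by 0.38 (SE 0.054), and its X-linked relative Hnrnph2 by 0.20 (SE 0.053). Hnrnpa0 (chr13:58125879-58128556), an intronless gene whose protein binds AU-rich mRNAs, had 179.8, 162 and 182 CPM in si-Rbm22 libraries and 281, 270.4 and 256 CPM in si-Control libraries. The fall of 0.62 (SE 0.062, adjusted p = 4.16e-07) was the largest among the hnRNPs. Hnrnph3 fell by 0.54 (SE 0.065), the CA-repeat binder Hnrnpl by 0.35 (SE 0.053) and its paralog Hnrnpll by 0.22 (SE 0.057). Hnrnpk, a poly-C binder, fell by 0.18 (SE 0.058), and Hnrnpa3 fell by 0.18 (SE 0.066, adjusted p = 0.0196).

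The remaining 9 hnRNPs did not pass. They were Hnrnpa1 and Hnrnpa2b1, the best known exon repressors, Hnrnpc, which binds uridine tracts, Hnrnpd and Hnrnpdl, Hnrnph1, Hnrnpm, Hnrnpr and Hnrnpul1. Their log2 fold changes lay between -0.14 and 0.07. Hnrnpa2b1, the gene of the 43 with most reads, was at 736 ± 25.3 CPM in si-Rbm22 and 707 ± 15.3 CPM in si-Control (SD, n = 3 each). Hnrnpa1 was at 472 ± 26.1 CPM in si-Rbm22 and 494 ± 17.6 CPM in si-Control. With si-Rbm22 replicate 3 left out, Hnrnpa1, Hnrnpc, Hnrnpd, Hnrnph1 and Srsf7 passed as lower, with adjusted p between 0.00127 and 0.0431. Summed over the 20 genes, the level was 4954 ± 154 CPM in si-Rbm22 and 4861 ± 67.3 CPM in si-Control. Near-identical pseudogenes (at least 95% identity over 300 bases) were found for 12 of the 43 genes, namely Hnrnpa1 (9), Hnrnpa3 (26), Hnrnpc, Hnrnpf, Hnrnph2, Hnrnpk, Hnrnpr, Ptbp1, Srsf3, Srsf5, Srsf10 and Tra2b, so these counts are less certain. Exons of 19 of the 43 overlap another gene, in 15 cases on the other strand alone, as for Hnrnpab with Phykpl, Srpk2 with Kmt2e and Srsf4 with Gm12992. The largest overlap on the same strand was that of Hnrnpm with March2, over 1169 bases, so the Hnrnpm count is less certain too.

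The PTB genes were all called higher, by a small amount. Of all genes tested, 43.1% were called higher in si-Rbm22. Ptbp1 (chr10:79854427-79864771), the widely expressed repressor, had 276, 296 and 308 CPM in si-Rbm22 libraries and 261, 253 and 247 CPM in si-Control libraries. Ptbp3 (chr4:59471868-59549364) had 101, 98.6 and 110.5 CPM in si-Rbm22 libraries and 83.6, 88.0 and 91.8 CPM in si-Control libraries. Ptbp2 (chr3:119718742-119784466), the paralog that replaces Ptbp1 in neurons, had 42.4, 42.3 and 49.0 CPM in si-Rbm22 libraries and 38.2, 36.9 and 42.0 CPM in si-Control libraries. All 3 genes were higher in every si-Rbm22 library, with log2 fold changes of 0.21 for Ptbp1 (SE 0.058, with an adjusted p of 0.00451 in edgeR), 0.24 for Ptbp3 (SE 0.063, 0.00299) and 0.19 for Ptbp2 (SE 0.079, 0.0383). The Ptbp2 call was lost without si-Rbm22 replicate 3 or si-Control replicate 1 or 2 (adjusted p = 0.176, 0.124 and 0.196). The 6 neuronal markers summed to between 16.1 and 20.8 CPM in si-Rbm22 libraries and between 26.3 and 30.3 CPM in si-Control libraries, and only 2 of them could be tested. These went opposite ways, with Syt1 at 0.346 ± 0.177 CPM in si-Rbm22 and 15.4 ± 0.707 CPM in si-Control (called lower) and Tubb3 at 17.6 ± 2.46 CPM in si-Rbm22 and 13.3 ± 1.43 CPM in si-Control (called higher).

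Ratios between paralogs within a library do not depend on the scaling between libraries. Of 20 pairs, 15 had ratios that did not overlap between the groups, 10 higher and 5 lower in si-Rbm22. Single genes did not overlap in 84.2% of all tested and no such share was computed for other gene pairs, so the count shows nothing particular to these pairs. With 3 libraries against 3 the exact two-sided permutation test cannot go below p = 0.1, or 0.133 after adjustment over the 20 pairs, and all 15 stood at that limit. The log2 ratio of Hnrnpul2 to Hnrnpul1 was 0.25 ± 0.0015 in si-Rbm22 and -0.80 ± 0.017 in si-Control (SD, n = 3 each), so that Hnrnpul2 had 118.9 to 119.2 reads per 100 of Hnrnpul1 in si-Rbm22 and 56.6 to 57.9 in si-Control. The SD in si-Rbm22 is below the counting error of these reads and does not state the precision of the ratio. Reads are not divided by gene length here, so the ratio does not say which transcript was more abundant. For Srpk3 against Srpk1 the log2 ratio was -4.28 ± 0.194 in si-Rbm22 and -8.03 ± 0.468 in si-Control, and for Srsf12 against Srsf10 it was -6.53 ± 0.571 in si-Rbm22 and -11.54 ± 1.76 in si-Control. The Srsf12 value in si-Control is no exact ratio, because 2 of its libraries had no Srsf12 read and their ratios were set by the 0.5 read added, and leaving out 1 library moved the difference between 4.49 and 6.02.

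Smaller shifts were seen for Clk2 against Clk1 (difference -0.65), Srsf9 against Srsf1 (-0.58), Hnrnpf against Hnrnph1 (0.48), Clk4 against Clk1 (0.47) and Srsf6 against Srsf5 (0.39). The pairs that overlapped were Ptbp2 and Ptbp3 against Ptbp1, Srpk2 against Srpk1, Clk3 against Clk1, and Hnrnpdl against Hnrnpd, with differences between -0.03 and 0.11. Ptbp1 made up 66.5% ± 1.14 of the summed PTB level in si-Rbm22 and 66.7% ± 1.68 in si-Control, Ptbp2 10.1% ± 0.401 in si-Rbm22 and 10.3% ± 0.673 in si-Control, and Ptbp3 23.4% ± 0.818 in si-Rbm22 and 23.1% ± 1.16 in si-Control (SD, n = 3 each).

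**Figure D4:**
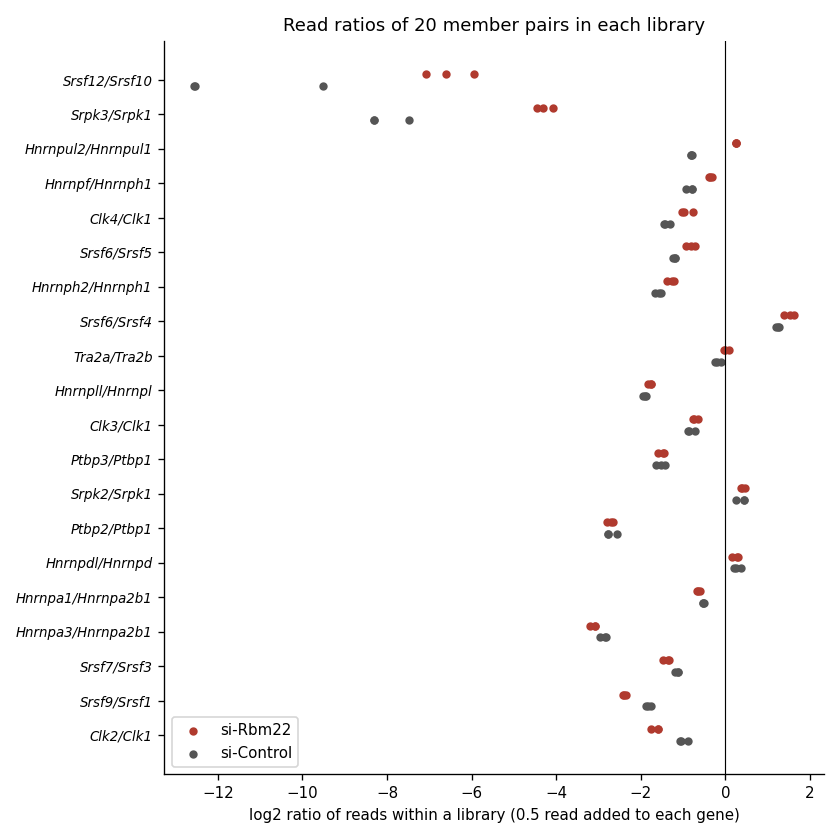
Log2 ratio of reads (horizontal axis, 0.5 read added to each gene) for 20 pairs of genes (vertical axis) in each si-Rbm22 and si-Control library, ordered by the difference between the groups. The points of the groups are far apart for Srsf12/Srsf10, Srpk3/Srpk1 and Hnrnpul2/Hnrnpul1 and overlap for 5 pairs.

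Per length (CPM per kilobase of all annotated exons of a gene), the order of the 43 genes was much the same in both groups, with a Spearman correlation of 0.969 across genes, which share their libraries. In si-Rbm22 the highest levels per length were those of Hnrnpab (191 ± 4.38), Hnrnpa1 (149.8 ± 8.29) and Hnrnpa2b1 (112 ± 3.85), each apart from the next by more than their SD. In si-Control the order began with Hnrnpa1 (157 ± 5.57), Hnrnpab (123 ± 3.14), Srsf5 (111 ± 2.00) and Hnrnpa2b1 (107 ± 2.32), of which the last 2 have overlapping SD ranges. Srsf5 was sixth in si-Rbm22, at 74.8 ± 1.99. These orders depend on the length used. Per kilobase of the longest coding transcript, si-Rbm22 began with Hnrnpa2b1 (426 ± 14.7), Hnrnpa1 (246 ± 13.6) and Hnrnpab (224 ± 5.14), and si-Control with Hnrnpa2b1 (409 ± 8.83), Srsf5 (282 ± 5.08) and Hnrnpa1 (257.5 ± 9.16). Srsf12, at 0.432 ± 0.155 in si-Rbm22 and 0.0122 ± 0.0211 in si-Control, was the lowest in both groups and Srpk3 next to lowest. By exon length, the genes that moved by at least 5 places were Hnrnpul2 (place 14 in si-Rbm22, 24 in si-Control), Srsf10 (24 and 31), Clk2 (37 and 29), Srsf9 (21 and 15) and Srsf4 (26 and 21).

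**Figure D5:**
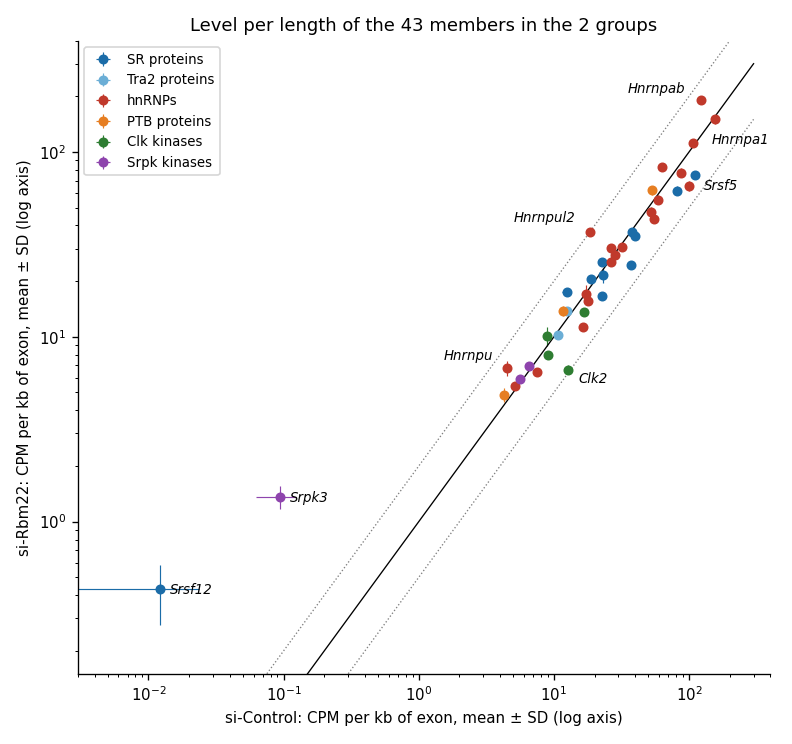
Mean level per length, CPM per kilobase of exon, in si-Rbm22 (vertical log axis) and si-Control (horizontal log axis) for the 43 genes. The genes are coloured by role, and bars are SD (n = 3 each). For Srsf12 in si-Control the SD exceeds the mean, so its bar is shortened on both sides, and its lower side reaches the axis. The solid line marks equal levels and the dotted lines 2-fold; Srsf12 and Srpk3 lie outside at the low end.

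These genes are annotated with many isoforms that the counts cannot separate. SR protein and hnRNP genes are known to limit their own output through alternative exons that send the transcript to nonsense-mediated decay. In GENCODE M21, 30 of the 43 (69.8%) have an isoform of that class and 34 (79.1%) one with a retained intron, against 24.7% and 50.8% of the 17183 protein-coding genes in the table. The median number of transcripts was 9 for the 43 genes and 4 for those protein-coding genes. A read count per gene adds all exonic reads of these isoforms, so a gene with equal counts can still differ in productive mRNA, which was not measured here. Hnrnpd and Hnrnpdl, neighbours on chromosome 5 at a distance of 54.6 kb, had log2 fold changes of -0.02 and -0.06. Hnrnpll and Srsf7, 137.7 kb apart on chromosome 17, had -0.22 and -0.09.

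Other regulators of the same steps, chosen by name, were called at shares of 69.2% to 89.3%, beside 82% of all genes tested. Of 26 SR-related proteins outside the families, 11 were higher and 7 lower (69.2% called, median log2 fold change 0.04). Without si-Control replicate 2 or without si-Control replicate 3, 7 were higher and 6 lower. Rnps1, an arginine-serine protein of the exon junction complex, was at 149 ± 3.18 CPM in si-Rbm22 and 42.8 ± 1.49 CPM in si-Control (SD, n = 3 each; log2 fold change 1.80, SE 0.057, with an adjusted p of 1.68e-12 in edgeR). The speckle scaffold gene Son rose by 0.79 (SE 0.061) and Rbm25 by 0.68 (SE 0.054). Rsrc1, a further arginine-serine protein, was at 18.4 ± 1.55 CPM in si-Rbm22 and 58.2 ± 2.89 CPM in si-Control (log2 fold change -1.67, SE 0.080), the U1-associated Luc7l fell by 0.44 (SE 0.065) and Scaf11 by 0.36 (SE 0.055). Rnps1 and Rsrc1 each have a near-identical pseudogene.

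Of 28 RNA-binding regulators close to hnRNPs, 15 were higher and 10 lower (89.3% called, median 0.17). Msi2 rose by 1.06 (SE 0.064), Qk, a splicing factor of muscle and vessels, by 0.97 (SE 0.057) and Celf1 by 0.69 (SE 0.056). The poly-C binder Pcbp2 fell by 0.93 (SE 0.054), the cold-induced Cirbp by 0.98 (SE 0.078) and Raly by 0.59 (SE 0.053). Of 20 kinases, phosphatases, methylases and import factors that act on SR proteins or hnRNPs, 13 were higher and 3 lower (80% called, median 0.33). Tnpo2, an import receptor of the transportin family that carries hnRNPs, was at 87.0 ± 5.24 CPM in si-Rbm22 and 322.5 ± 10.6 CPM in si-Control (log2 fold change -1.89, SE 0.062, with an adjusted p of 2.12e-12 in edgeR). Its paralog Tnpo1 rose by 0.36 (SE 0.053), and Tnpo3, the import receptor of SR proteins, had a log2 fold change of 0.07 (SE 0.053) and did not pass. Both were named after their values were seen. Ppp1ca, a catalytic subunit of protein phosphatase 1, fell by 0.20 (SE 0.053) and Akt1 by 0.14 (SE 0.057). Top1, a topoisomerase that also phosphorylates SR proteins in human cells, rose by 0.97 (SE 0.056), the phosphatase 1 regulator gene Ppp1r10 by 0.92 (SE 0.059) and the catalytic subunit gene Ppp1cb by 0.72 (SE 0.058). The largest rise among the 20, a log2 fold change of 2.59 (SE 0.1745), was that of Hipk2, also named after its value was seen.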

How the data were processed

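RNA was measured in 6 cultures, and the authors deposited raw, whole-number read counts per Ensembl gene. Per the submitters' processing notes, fastp, HISAT2, HTSeq, DESeq2 and GRCm38 were used, without versions or roles; the annotation release and strand setting were not found there. Symbols, positions and exon lengths came from GENCODE M21 (18868 of 18951 identifiers matched). Groups came from sample titles. Chi-square per degree of freedom between replicates was 10.9 to 32.5 in si-Rbm22 and 4.64 to 7.27 in si-Control, so no pair agreed within sampling noise.

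All genes were fitted with edgeR 4.0.16 in R 4.3.3 (filterByExpr, TMM, robust quasi-likelihood, group only, Benjamini-Hochberg over 14621 genes). The procedure was also run on simulated data, but the outcome is not given here, and nothing is concluded from it for these libraries. Alternatives were RLE factors, other filters, DESeq2 1.42.0, limma-voom (3.58.1), the replicate block, each library left out, and mitochondrial and cardiomyocyte marker genes left out. Intervals are exact binomial and cover counting error only, since reads are not independent molecules. Pseudogene copies were found with blastn on GENCODE transcripts. Genes with values in every library were Rbm22, members past 2-fold, the 3 smallest p of each role (every gene in roles of up to 4) and pairs differing by 1 on the log2 scale. Of the other lists, the 3 smallest p of each direction were named. Members and lists were chosen with earlier results of these data known. Protein features were not analysed here, nor was Prmt1.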

Additional observations from a re-analysis of the deposited data

How the results depend on the processing

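Over all alternatives, the count of genes called was between 8772 (of 10497 tested) and 13057 (of 18951 tested). At an adjusted p under 0.01, 11137 of 14621 genes were called. For SR protein, hnRNP, PTB and kinase genes, the count lay between 22 (adjusted p under 0.01) and 29. Without 1 library it ranged from 24 to 29. Genes of the 43 past the test and at least 2-fold numbered 2, but 8 at a limit of 1.5-fold and 1 (Hnrnpul2) among genes with 10 CPM in 3 libraries, where Srsf12 and Srpk3 are not tested. RLE factors and DESeq2 gave 3, Hnrnpul2 added. The median shift of the log2 fold change over all genes was 0.017 with RLE, -0.030 with no filter and 0.040 with the 10 CPM filter. With the 10 CPM filter, the largest shift among the 43 was 0.0402. Without a filter, 5 of the 43 lost their call and 1 gained it. Direction turned for genes that had not passed: with the 10 CPM filter Srsf1 was at 0.0099, Hnrnpd at 0.020 and Hnrnpm at 0.0031. Without 1 library Hnrnpd ranged from -0.12 to 0.024. Log2 ratio differences that changed sign ranged from -0.055 to 0.055 for Ptbp2/Ptbp1, -0.026 to 0.082 for Ptbp3/Ptbp1, -0.039 to 0.059 for Srpk2/Srpk1 and -0.075 to 0.018 for Hnrnpdl/Hnrnpd. The causes were not tested. Clk4, Srsf11 and Tra2a lost their calls in at least 5 of the alternative fits. With the longest coding transcript as length the order of levels changed, and Hnrnpa2b1 came first in si-Rbm22 and in si-Control. Equal replicate numbers share only a number: the correlations of same-numbered libraries' deviations were 0.0029, 0.057 and 0.11, and with the replicate block 11945 genes were called and 29 of the 43, with Hnrnpc gained and Srsf11 lost.

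The depth, at least 34269042 reads a library, limits Srsf12 and Srpk3, whose si-Control levels rest on 4 and 28 reads.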
